A study of Mus musculus with 9 samples.

Results

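The clustered histone genes are mainly the replication-dependent genes of the linker histone H1 and the core histones H2A, H2B, H3 and H4. They are named Hist1h to Hist4h after the gene cluster they belong to. Chosen by name, the set also holds testis genes (Hist1h1t, Hist1h2aa and Hist1h2ba) and entries with a pseudogene name (Hist3h2bb-ps and Hist2h3c2-ps). All non-control probes whose name in the array design begins with Hist1h, Hist2h, Hist3h or Hist4h were taken, and a gene with several probes was represented by the brightest. This gave 49 genes with 54 probes, of 55681 probes on the array. A gene counted as measured if 3 or more of the 9 arrays had its probe well above background, which held for 46 of the 49 and left 28365 genes and features in all. Hist1h1d, Hist1h2ae and Hist1h3a were not measured. By class, 5 of 6 genes of H1, 13 of 14 of H2A, 12 of 12 of H2B, 7 of 8 of H3 and 9 of 9 of H4 were measured. By cluster, 33 of 36 genes of Hist1 (probes within chr13:21814057-24026527, mm9), 9 of 9 of Hist2 (chr3:96024171-96074115), 3 of 3 of Hist3 (chr11:58762964-58769013) and the only gene of Hist4 (Hist4h4, chr6:136752681-136752740, minus strand) were measured. Hist1h4i and Hist2h3c2-ps have no position in the design for the probe used. Probe positions are those of mm9 throughout.

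The samples were satellite cells, which are the stem cells of skeletal muscle. They came from KO mice, deficient in Bmi1, and from WT mice. All mice were labelled as male, FVB and 2 months old. The sort kept cells that carried CD34 and integrin alpha-7 and lacked Sca1, CD11b, CD45 and CD31. Their RNA was expanded by whole transcriptome amplification before labelling with Cy3. The labels give neither the Bmi1 allele nor the extent of its deletion. There were 6 KO and 3 WT arrays. KO arrays that shared the first number of their description were averaged, so that 3 KO samples (1 from replicates 1 and 4, 2 from 2 and 5, 3 from 3 and 6) stood against 3 WT samples. Arrays are called biological replicates in the labels, yet separate animals are not stated. A p-value here therefore measures the spread between these samples alone, and that spread may be technical.

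Most histone genes of these clusters are transcribed mainly in S phase, when new chromatin has to be packed, and are nearly silent in resting cells. Their mRNA usually ends in a short stem-loop in place of a poly(A) tail. The stem-loop is bound by Slbp, which takes part in processing, export, translation and decay of the message, while Npat switches on transcription in histone locus bodies. Satellite cells are mostly quiescent in undisturbed adult muscle and divide after injury. Some clustered histone genes also make polyadenylated transcripts.

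The 3′ stem-loop could be read directly in some of the 60-base probes. The letters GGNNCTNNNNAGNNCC with 6 paired stem bases and a loop of 4 bases, which read the same on both strands, were found in 6 of the 54 histone probes and in no other probe of the array (0.0108% of all probes). They are shown because they tell which end of the message such a probe reads. Capitals mark the stem-loop, and lower case the flanking probe bases.
Hist1h3g (chr13:23627719-23627778, plus strand): ctttaaaGGCTCTTCTTAGAGCCaccca
Hist1h4m (chr13:21903960-21904019, plus strand): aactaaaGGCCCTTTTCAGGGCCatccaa
Hist2h2bb (chr3:96074056-96074115, plus strand): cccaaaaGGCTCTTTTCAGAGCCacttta
Hist2h2aa1 (chr3:96049949-96050008, plus strand): taaaaaGGCTCTTTTCAGAGCCacccact
The positions are those of the whole probe. In Hist1h3g, Hist1h4m and Hist2h2bb, between 5 and 6 bases of the probe follow the stem-loop. In the Hist2h2aa1 probe 38 bases follow it, so most of that probe reads sequence downstream of the stem-loop, which a message that ends there lacks. The other 2 genes with the stem-loop in their probe are Hist1h3i and the unmeasured Hist1h3a.

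Probes of the same class can be nearly identical. Of the 60 bases, 50 were the same in 4 H2A probes of both the Hist1 and the Hist2 cluster. Capitals mark the bases shared by all 4, and each sequence ends in a stop triplet.
Hist1h2an (chr13:21878695-21878754, minus strand): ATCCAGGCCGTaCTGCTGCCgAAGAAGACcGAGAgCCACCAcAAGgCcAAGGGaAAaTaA
Hist1h2ak (chr13:21845304-21845363, minus strand): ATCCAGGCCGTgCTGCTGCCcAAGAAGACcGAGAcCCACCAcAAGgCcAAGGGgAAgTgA
Hist1h2af (chr13:23626113-23626172, plus strand): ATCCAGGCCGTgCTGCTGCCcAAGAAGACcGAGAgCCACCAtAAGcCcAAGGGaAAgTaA
Hist2h2aa2 (chr3:96049837-96049896, plus strand): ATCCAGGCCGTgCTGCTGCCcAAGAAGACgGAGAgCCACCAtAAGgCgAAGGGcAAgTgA
Groups of probes linked by at least 44 matching bases held 7 genes of H2A (these 4 with Hist1h2ag, Hist1h2ah and Hist2h2ac), 4 genes of H4 (Hist1h4c, Hist1h4d, Hist1h4j and the second probe of Hist1h4k) and 2 of H3 (Hist1h3c and Hist1h3f). Signals within such a group cannot be assigned to 1 gene with certainty, and genes in it are not independent measurements.

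Promoters were available for 43 of the genes (RefSeq, GRCm38.p6), and the letters of 4 motifs were searched on both strands in the 250 bases before the start. The CCAAT box (CCAAT) was present in 81.4% of the histone promoters, as compared to 33.8% of all 32851 promoters. All 6 promoters of H1, all 14 of H2A and all 9 of H2B held it, but only 4 of 6 of H3 and 2 of 8 of H4. The TATA box (TATAAA) was found in 51.2%, against 12.4% of all promoters. The octamer (ATTTGCAT), which the factor Pou2f1 binds, was found in 7 of 14 promoters of H2A and 5 of 9 of H2B and in none of H1, H3 or H4 (1.60% of all promoters). The H1 box (AAACACA) stood in 5 of 6 promoters of H1, 2 of 14 of H2A and 2 of 9 of H2B and in none of H3 or H4, against 6.25% of all promoters. Some H2A and H2B genes lie close together on opposite strands, such as Hist1h2aa and Hist1h2ba, which held the same motifs. Whether such genes share promoter bases was not tested, so the counts of H2A and H2B may not be independent. Shown are the last 130 bases before the start of a gene of the Hist1 cluster of H2B, of one of H1, and of Hist3h2ba of the Hist3 cluster, which was above background on all KO arrays and 1 WT array. Capitals mark the motifs on either strand.
Hist1h2bm (chr13:21721914-21722043, plus strand, GRCm38.p6): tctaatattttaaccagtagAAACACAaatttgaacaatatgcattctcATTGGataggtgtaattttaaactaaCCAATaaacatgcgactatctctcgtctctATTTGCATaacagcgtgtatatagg
Hist1h1b (chr13:21780626-21780755, minus strand, GRCm38.p6): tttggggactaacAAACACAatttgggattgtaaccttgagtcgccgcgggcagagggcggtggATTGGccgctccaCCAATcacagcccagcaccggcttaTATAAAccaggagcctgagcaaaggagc
Hist3h2ba (chr11:58948781-58948910, plus strand, GRCm38.p6): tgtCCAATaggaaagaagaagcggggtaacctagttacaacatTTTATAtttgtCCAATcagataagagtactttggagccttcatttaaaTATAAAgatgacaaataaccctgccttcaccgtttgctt
The Hist1h2bm stretch holds CCAAT on each strand, the octamer and the letters of the H1 box, that of Hist1h1b the H1 box, CCAAT on each strand and TATAAA, and that of Hist3h2ba CCAAT and TATAAA. A match of letters is a description and shows no binding.

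Signal was alike on all arrays, with a median of 148 to 202. Spots well above background made up 71.9% to 75.8% of non-control spots, none was saturated (0 on each array), and precision is limited by how many arrays there are. Arrays of a KO pair correlated at 0.9949 to 0.9962 over measured genes, and all other pairs of arrays at 0.968 to 0.982. KO replicate 1 is wild type by its genotype field and KO by title, source and description, and was kept as KO. Bmi1 had log2 signals of 0.58, 0.71 and 0.48 in KO and 0.40, 0.61 and 0.48 in WT, and differed by 0.10 (limma adjusted p = 0.849). The probe may lie outside the deleted part, so this does not check the labels. Cdkn2a, a repressed target of Bmi1, rose in KO by 3.28 ± 0.21 (SE; limma adjusted p = 0.0157) on the log2 scale. Levels are log2 signals minus the array's 75th percentile, so that a level of 0 equals that percentile, and differences are KO minus WT.

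Most clustered histone genes lay lower in KO than in WT, but no gene passed the test. The difference was below 0 in 40 of the 46 measured genes, as compared to 52.8% of all genes, with a median of -0.41 (all genes -0.02). limma called 0 of 46 at an adjusted p under 0.05, where 0.141% of all genes were called (0.0106% lower and 0.13% higher in KO). At an unadjusted p under 0.05 it gave 4 genes, all lower (Hist1h1e, Hist1h2be, Hist1h2bg and Hist2h2ab), against 11% of all genes, 4.21% lower and 6.77% higher. KO and WT samples did not overlap in 3 genes that were lower (8.09% of all genes) and in 1 that was higher (8.62%), shares at or below the background. In these bulk samples, fewer cells of a type and less RNA per cell cannot be told apart.

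The shift was uneven between samples. The median over the 46 genes, set against the WT mean, was -0.29 in KO sample 1, 0.06 in KO sample 2 and -0.89 in KO sample 3, against -0.02, -0.23 and 0.30 for WT samples 1, 2 and 3. KO sample 2 thus lay within the WT range, and KO sample 1 just below it. KO sample 3 was the lowest of the 6 samples in 31 genes (16.3% of all genes), WT sample 3 the highest in 30 (17.6%), and both held in 29 (5.3%). Without KO sample 3 the median difference was -0.14, with 38 of 46 genes below 0 (55% of all genes). Without WT sample 3 it was -0.28, and without KO sample 2 it was -0.66. Without KO sample 1, which includes the array with the contrary genotype field, it was -0.45. Within slide 1 (3 KO and 2 WT arrays) the median was -0.52, and within slide 2 (3 KO and 1 WT array, no test) it was -0.18, with 32 of 46 genes below 0. With slide as a block it was -0.34.

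**Figure D1:**
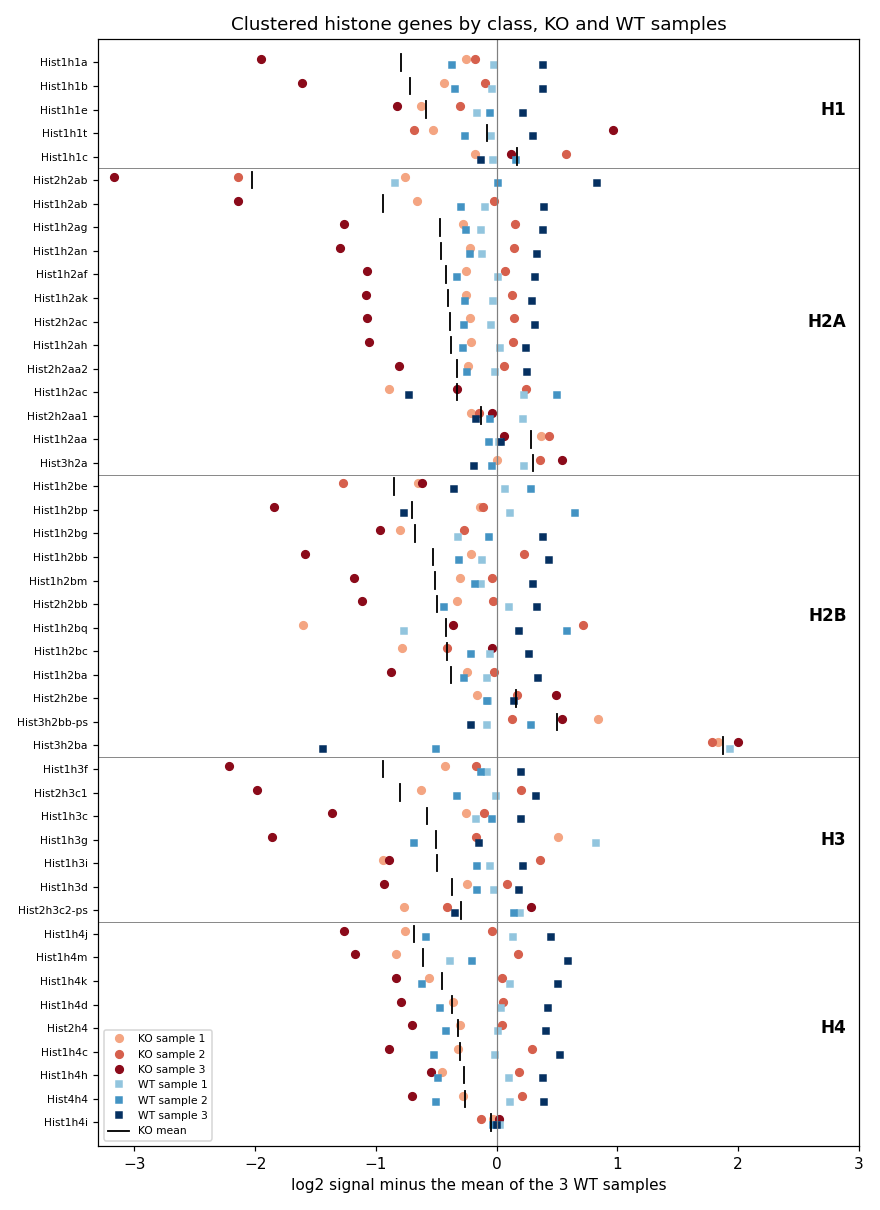
Log2 signal of each measured clustered histone gene minus its mean over the 3 WT samples (horizontal axis), genes sorted by difference within each histone class. Circles are the 3 KO samples, squares the 3 WT samples and the bar the KO mean; the dark circles of KO sample 3 lie farthest left in 31 of 46 genes.

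The linker histones H1 bind the nucleosome where DNA enters and leaves it. Of 5 measured genes, 4 lay lower in KO and the median difference was -0.59. Hist1h1e (chr13:23713707-23713766, minus strand) had levels of 1.35, 1.67 and 1.15 in the KO samples, against 1.81, 1.92 and 2.19 in the WT samples. All KO samples lay below all WT samples, and the difference was -0.59 ± 0.19 (SE; limma adjusted p = 0.328). Hist1h1a (chr13:23855888-23855947, plus strand) had 2.95, 3.02 and 1.25 in the KO samples, against 3.18, 2.83 and 3.59 in the WT samples. KO sample 3 alone stood apart there, while the other KO samples lay within the WT range, with a difference of -0.79 ± 0.51 (SE; limma adjusted p = 0.664). Hist1h1b (chr13:21871923-21871982, minus strand) had 3.52, 3.86 and 2.34 in the KO samples, against 3.92, 3.61 and 4.34 in the WT samples, a difference of -0.71 ± 0.42 (SE; limma adjusted p = 0.627). Only KO sample 3 lay well below the WT range, and KO sample 1 was slightly below it. The other H1 genes differed from this. Hist1h1c had 1.45, 2.20 and 1.74 in the KO samples, against 1.60, 1.78 and 1.50 in the WT samples (0.17), and the testis gene Hist1h1t had -2.28, -2.44 and -0.80 in the KO samples, against -1.80, -2.02 and -1.46 in the WT samples (-0.08). KO sample 3 was the highest of the 6 samples in Hist1h1t and lay within the WT range in Hist1h1c. Without KO sample 3, the H1 median was -0.27.

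H2A pairs with H2B in the nucleosome, and 11 of its 13 measured genes lay lower in KO (median -0.38). Hist1h2ab (chr13:23843392-23843451, plus strand) had 0.89, 1.54 and -0.59 in the KO samples, against 1.46, 1.26 and 1.95 in the WT samples, a difference of -0.94 ± 0.55 (SE; limma adjusted p = 0.619). KO sample 2 lay within the WT range and KO sample 3 far below it. The 7 genes with alike probes (Hist1h2af, Hist1h2ag, Hist1h2ah, Hist1h2ak, Hist1h2an, Hist2h2aa2 and Hist2h2ac) differed by -0.46 to -0.33, and in them KO sample 3 minus the mean of the other KO samples was -1.26 to -0.73. Of these, Hist2h2ac had 4.44, 4.80 and 3.58 in the KO samples, against 4.61, 4.39 and 4.98 in the WT samples, a difference of -0.38 ± 0.34 (SE; limma adjusted p = 0.765). The groups overlapped, and KO sample 3 was again the lowest.

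Among the other H2A genes, Hist2h2ab (chr3:96024171-96024230, plus strand) had -5.75, -7.14 and -8.16 in the KO samples, against -5.83, -4.98 and -4.17 in the WT samples. KO samples 2 and 3 were lowest, KO sample 1 lay within the WT range, and the difference was -2.02 ± 0.70 (SE; limma adjusted p = 0.371). Its probe was well above background on only 2 of 6 KO and 2 of 3 WT arrays, so the size is uncertain, and with normexp background correction it was -0.61. Hist1h2aa (chr13:24026468-24026527, plus strand), a testis H2A, had -1.32, -1.25 and -1.62 in the KO samples, against -1.66, -1.75 and -1.65 in the WT samples. It was the only measured member with all KO samples above all WT samples, by 0.29 ± 0.14 (SE; limma adjusted p = 0.538). Hist1h2ac differed by -0.32, with KO sample 1 lowest and WT sample 2 highest. The H2A median was -0.06 without KO sample 3.

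Of 12 genes of H2B, 9 lay lower in KO and the median was -0.45. Hist1h2be (chr13:23675610-23675669, minus strand), which had the smallest p of all members, had -1.79, -2.41 and -1.75 in the KO samples, against -1.06, -0.85 and -1.49 in the WT samples. All KO samples lay below all WT samples, KO sample 2 was the lowest, and the difference was -0.85 ± 0.25 (SE; limma adjusted p = 0.292). Leaving out KO sample 3 gave -0.96, no smaller than with it. Hist1h2bg (chr13:23663823-23663882, plus strand) had -1.02, -0.49 and -1.18 in the KO samples, against -0.54, -0.28 and 0.17 in the WT samples, a difference of -0.68 ± 0.26 (SE; limma adjusted p = 0.425). KO sample 2 lay within the WT range and the other KO samples below it. Hist2h2bb, whose probe ends just after the stem-loop, had -2.68, -2.39 and -3.47 in the KO samples, against -2.26, -2.79 and -2.02 in the WT samples, or -0.49 ± 0.34 (SE; limma adjusted p = 0.687). Hist2h2be (chr3:96026893-96026952, plus strand) had -3.27, -2.94 and -2.61 in the KO samples, against -3.17, -3.18 and -2.96 in the WT samples, a difference of 0.17 ± 0.19 (SE; limma adjusted p = 0.833). The groups overlapped in both, with KO sample 3 lowest in Hist2h2bb and highest in Hist2h2be.

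The remaining Hist1 genes of H2B differed by -0.70 to -0.38. Hist1h2ba, a testis H2B that neighbours Hist1h2aa, had 5.27, 5.49 and 4.64 in the KO samples, against 5.43, 5.25 and 5.86 in the WT samples (-0.38). Hist1h2bc had -1.01, -0.64 and -0.26 in the KO samples, against -0.28, -0.44 and 0.04 in the WT samples (-0.41). Of the 6 samples, KO sample 3 was lowest in Hist1h2ba, and it lay within the WT range in Hist1h2bc. Without KO sample 3, the H2B median was -0.15.

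H3 carries many of the tail modifications of chromatin, and all 7 measured genes lay lower in KO (median -0.51). Hist1h3f (chr13:23636330-23636389, plus strand) had -2.01, -1.75 and -3.80 in the KO samples, against -1.66, -1.71 and -1.38 in the WT samples. The groups did not overlap, though KO sample 2 lay close to the lowest WT sample, and the difference was -0.94 ± 0.54 (SE; limma adjusted p = 0.614). Hist1h3c, whose probe is alike, had -0.62, -0.47 and -1.73 in the KO samples, against -0.54, -0.40 and -0.16 in the WT samples, or -0.58 ± 0.35 (SE; limma adjusted p = 0.638). KO sample 3 lay well below the others in both. Hist2h3c1 (chr3:96051073-96051132, plus strand) had 3.16, 3.99 and 1.80 in the KO samples, against 3.78, 3.46 and 4.11 in the WT samples, a difference of -0.80 ± 0.55 (SE; limma adjusted p = 0.686). KO sample 2 was above 2 of the 3 WT samples, and KO samples 1 and 3 were below all of them. Hist2h3c2-ps carries a pseudogene name in the array design, while its RefSeq symbol is H3c15. It had -4.39, -4.03 and -3.33 in the KO samples, against -3.42, -3.47 and -3.96 in the WT samples, or -0.30 ± 0.31 (SE; limma adjusted p = 0.806). There KO sample 3 was the highest. The others (Hist1h3d, Hist1h3g and Hist1h3i) differed by -0.51 to -0.37. The H3 median was -0.21 without KO sample 3.

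H4 pairs with H3, and all 9 genes lay lower in KO (median -0.32). Hist1h4i is counted here by a probe without a genome position (-0.05), and its second probe, which has one, differed by -0.67. Hist1h4j (chr13:21826989-21827048, plus strand) had 1.80, 2.52 and 1.30 in the KO samples, against 2.69, 1.98 and 3.01 in the WT samples, a difference of -0.68 ± 0.39 (SE; limma adjusted p = 0.616). Hist1h4m, whose probe holds the stem-loop, had -2.57, -1.56 and -2.91 in the KO samples, against -2.13, -1.94 and -1.14 in the WT samples, or -0.61 ± 0.42 (SE; limma adjusted p = 0.689). Hist1h4k (chr13:21842063-21842122, minus strand) had 4.94, 5.55 and 4.67 in the KO samples, against 5.61, 4.88 and 6.01 in the WT samples, or -0.45 ± 0.36 (SE; limma adjusted p = 0.736). In all 3 KO sample 3 was the lowest, WT sample 3 the highest, and the groups overlapped. Hist2h4 (chr3:96066951-96067010, minus strand) had 5.28, 5.63 and 4.88 in the KO samples, against 5.60, 5.17 and 5.99 in the WT samples, or -0.32 ± 0.28 (SE; limma adjusted p = 0.758). Hist4h4, alone in its cluster, had 3.14, 3.63 and 2.72 in the KO samples, against 3.54, 2.92 and 3.81 in the WT samples, or -0.26 ± 0.32 (SE; limma adjusted p = 0.845). In both, KO sample 3 was again lowest and WT sample 3 highest. WT sample 2 was low in most H4 genes, and within slide 2, whose only WT array it is, the H4 median was 0.02. The H4 median was -0.13 without KO sample 3, and -0.12 without WT sample 3.

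Of the Hist3 cluster, 2 genes, each well above background on every array, Hist3h2a and Hist3h2bb-ps, lay higher in KO, where 31 of 33 measured genes of Hist1 (median -0.46) and 8 of 9 of Hist2 (-0.33) lay lower. These medians were, without KO sample 3, -0.17 for Hist1 and -0.18 for Hist2. No Hist3 gene passed the test, and 47.2% of all genes had a difference above 0. Hist3h2a (chr11:58768954-58769013, plus strand) had 0.46, 0.81 and 0.997 in the KO samples, against 0.68, 0.41 and 0.26 in the WT samples, a difference of 0.30 ± 0.19 (SE; limma adjusted p = 0.658). Hist3h2bb-ps, a pseudogene (chr11:58767908-58767967, minus strand), had -3.57, -4.28 and -3.87 in the KO samples, against -4.49, -4.12 and -4.62 in the WT samples, or 0.50 ± 0.23 (SE; limma adjusted p = 0.513). The groups overlapped in both. Hist3h2ba (chr11:58762964-58763023, plus strand) had -4.75, -4.79 and -4.58 in the KO samples, against -4.64, -7.08 and -8.02 in the WT samples, or 1.87 ± 0.83 (SE; limma adjusted p = 0.489). WT sample 1 lay among the KO samples and the other WT samples far below. The probe was well above background on all 6 KO arrays and on 1 of 3 WT arrays, so the gene passed the filter through its KO arrays. Its fold is uncertain, and with normexp correction the difference was 0.33. KO sample 3 was not the lowest sample for any Hist3 gene.

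The low values of KO sample 3 were present on both of its arrays, which lay on different slides. The median over the 46 genes against the WT mean was -0.90 on KO replicate 3 (slide 1) and -0.94 on KO replicate 6 (slide 2). It was -0.35 and -0.25 on the arrays of KO sample 1, and 0.08 and 0.02 on those of KO sample 2. Against the mean of the other KO samples, KO sample 3 was lower in 35 of 46 genes (44.7% of all genes), with a median of -0.74 (all genes 0.04). It was lower by more than 0.5 on the log2 scale in 29 of 46, as compared to 9.4% of all genes.

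**Figure D2:**
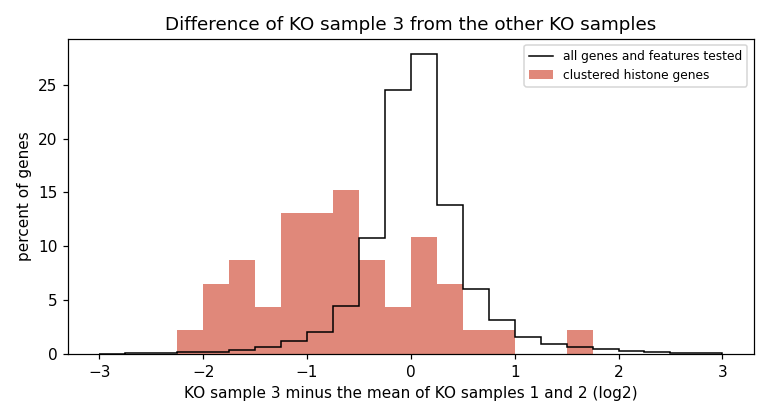
Distribution of the log2 signal of KO sample 3 minus the mean of KO samples 1 and 2 (horizontal axis), as the percent of genes in each bin (vertical axis). Bars are the 46 clustered histone genes (median -0.74) and the black outline all 28365 genes and features (median 0.04).

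The genes differed among themselves in this respect. The deepest values of KO sample 3 were those of Hist1h3g (-2.03), Hist1h3f (-1.92), Hist1h2ab (-1.80) and Hist2h3c1 (-1.77). It was not lower in 11 genes, from Hist3h2bb-ps (0.06) to Hist1h1t (1.57), among them Hist2h2be, Hist1h2bc, Hist2h2aa1 and Hist1h2be. These genes were named after their values were seen. KO sample 3 was lower in 23 of the 25 genes whose probe had a GC content of at least 50% (median -0.86), and in 12 of the 21 with less (median -0.08). Over all genes, the medians in the same GC classes were 0.09 and 0.03. Probes rich in GC include all 7 alike probes of H2A and those of Hist1h4c, Hist1h4d and Hist1h4j, so these counts are not independent.

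Probes of the same gene, or of near-identical genes, can be set side by side. This is not a strict check within a gene. The Hist2h2aa2 probe, the brightest probe of Hist1h2ak and the second probe of Hist1h4k belong to the groups of alike probes. Their signals cannot be assigned to 1 gene with certainty. Hist2h2aa1 and Hist2h2aa2 are near-identical genes, and the design places the starts of their probes 112 bases apart on the same strand. The probe of Hist2h2aa2 (chr3:96049837-96049896, plus strand) had 4.37, 4.66 and 3.79 in the KO samples, against 4.59, 4.35 and 4.85 in the WT samples, a difference of -0.33 ± 0.26 (SE; limma adjusted p = 0.739). The Hist2h2aa1 probe downstream of the stem-loop had 0.80, 0.87 and 0.98 in the KO samples, against 1.23, 0.96 and 0.84 in the WT samples, a difference of -0.13 ± 0.15 (SE; limma adjusted p = 0.823). Thus KO sample 3 was the lowest sample at the Hist2h2aa2 probe and the highest KO sample at the Hist2h2aa1 probe. At Hist1h2ak, the brightest probe had 4.40, 4.78 and 3.57 in the KO samples, against 4.62, 4.39 and 4.94 in the WT samples (-0.40), and a probe starting 333 bases away (chr13:21845637-21845696, minus strand) had 0.69, 0.73 and -1.13 in the KO samples, against 1.26, 1.17 and 1.26 in the WT samples (-1.13). At both, KO sample 3 was lowest. The groups overlapped at the brightest probe, while at the other probe all KO samples lay below all WT samples. The difference there was -1.13 ± 0.51 (SE; limma adjusted p = 0.514, over all probes kept). That probe is in none of the groups of alike probes.

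Hist1h4i had probes that disagreed, and whether the brightest reads this gene was not tested. The brightest has no genome position in the design, had nearly flat levels of 6.05, 5.95 and 6.10 in the KO samples, against 6.11, 6.04 and 6.08 in the WT samples, and shares a run of 20 bases with 2 probes of other genes or features; a stretch of it is shown.
Hist1h4i, stretch of the probe without a position: cccgagtgttgggattaaaggcgtgcgcca
The second probe, placed at chr13:22133139-22133198, minus strand, had 2.66, 3.45 and 1.93 in the KO samples, against 3.29, 2.93 and 3.83 in the WT samples, a difference of -0.67, with KO sample 3 lowest and WT sample 3 highest. The same samples were lowest and highest at both probes of Hist1h4k and Hist2h4, whose second probes differed by -0.56 and -0.34. The second probe of Hist4h4 was not above background on any array.

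**Figure D3:**
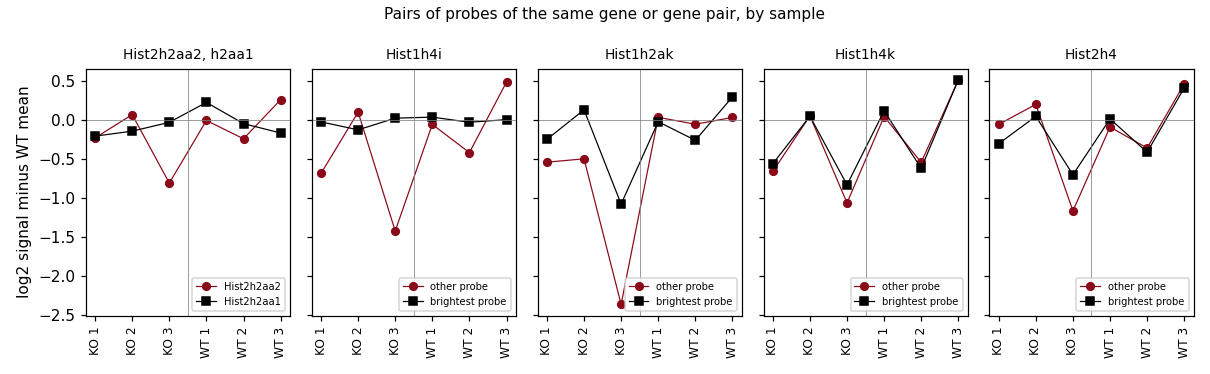
Log2 signal minus the WT mean (vertical axis) in each KO and WT sample for pairs of probes, with lines that only join points of the same probe. KO sample 3 is low at both probes of Hist1h2ak, Hist1h4k and Hist2h4, and at 1 of the 2 probes for Hist2h2aa2 with Hist2h2aa1 and for Hist1h4i.

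Related genes were taken from 4 lists, and no gene in them passed the test. Of the DNA replication list (replication fork, licensing and S phase genes), 42 of 42 genes lay lower in KO (median -0.58), against 52.8% of all genes, and the groups did not overlap in 17, against 8.09% of all genes. Its median per sample was -0.21, -0.36 and -1.20 in KO and -0.05, -0.11 and 0.12 in WT, so KO sample 3 was low here as well, and was the lowest of the 6 samples in 40 genes. Without KO sample 3 the list's median was -0.26, with 41 genes below 0. KO sample 2 lay below the WT samples for this list and within them for the histone genes, a difference that was not tested. Rfc2, a subunit of the clamp loader, had 0.44, 0.35 and 0.12 in the KO samples, against 0.99, 0.68 and 0.98 in the WT samples, or -0.58 ± 0.15 (SE; limma adjusted p = 0.243). Top2a, the topoisomerase of dividing cells, differed by -1.27 ± 0.39 (SE; limma adjusted p = 0.313), and Ccna2, cyclin A, by -1.21 ± 0.40 (SE; limma adjusted p = 0.345). In these 3 genes all KO samples lay below all WT samples.

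Of the chaperones and acetylases that take new histones to DNA, 23 of 24 measured genes lay lower in KO, against 52.8% of all genes. The median of this list was -0.34, and -0.23 without KO sample 3. In 10 of its genes the groups did not overlap, with KO lower, against 8.09% of all genes. Mcm2 (-0.58) belongs to this list and to the DNA replication list. Nap1l1, which carries H2A and H2B, had 2.42, 2.33 and 2.12 in the KO samples, against 2.73, 2.73 and 2.99 in the WT samples, or -0.53 ± 0.14 (SE; limma adjusted p = 0.261). Tonsl, which reads new H4, differed by -0.58 ± 0.17 (SE; limma adjusted p = 0.286), and Hjurp, the chaperone of the centromeric H3, by -0.65 ± 0.22 (SE; limma adjusted p = 0.369). Of genes for transcription and processing of histone mRNA, 25 of 29 lay lower (median -0.14, and -0.09 without KO sample 3). Slbp had 3.08, 2.84 and 2.50 in the KO samples, against 3.17, 3.06 and 3.37 in the WT samples, or -0.40 ± 0.19 (SE; limma adjusted p = 0.519). Npat differed by -0.91 ± 0.42 (SE; limma adjusted p = 0.514), and Srrt, which takes part in RNA processing at the cap, by -0.21 ± 0.11 (SE; limma adjusted p = 0.557). All KO samples of Srrt lay below all WT samples, and the lowest of the 6 samples for Slbp was KO sample 3.

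Of the listed histone variants that are not clustered genes, 13 of 15 measured lay lower in KO (median -0.18, and -0.15 without KO sample 3). Cenpa, the centromeric H3, had 0.19, 0.96 and -0.29 in the KO samples, against 1.46, 1.52 and 1.78 in the WT samples, or -1.30 ± 0.32 (SE; limma adjusted p = 0.22). H2ax, the variant phosphorylated at DNA breaks, had -1.14, -0.91 and -1.93 in the KO samples, against -0.47, -0.23 and -0.10 in the WT samples, or -1.06 ± 0.29 (SE; limma adjusted p = 0.252). In both all KO samples lay below all WT samples, and KO sample 3 was the lowest. Hils1, a spermatid linker histone, had -4.93, -4.86 and -4.52 in the KO samples, against -7.40, -5.29 and -7.46 in the WT samples, or 1.95 ± 0.60 (SE; limma adjusted p = 0.312). Its probe was well above background on all 6 KO arrays and 1 of 3 WT arrays, so it passed the filter through its KO arrays. Its fold is uncertain, and with normexp correction the difference was 0.40.

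**Figure D4:**
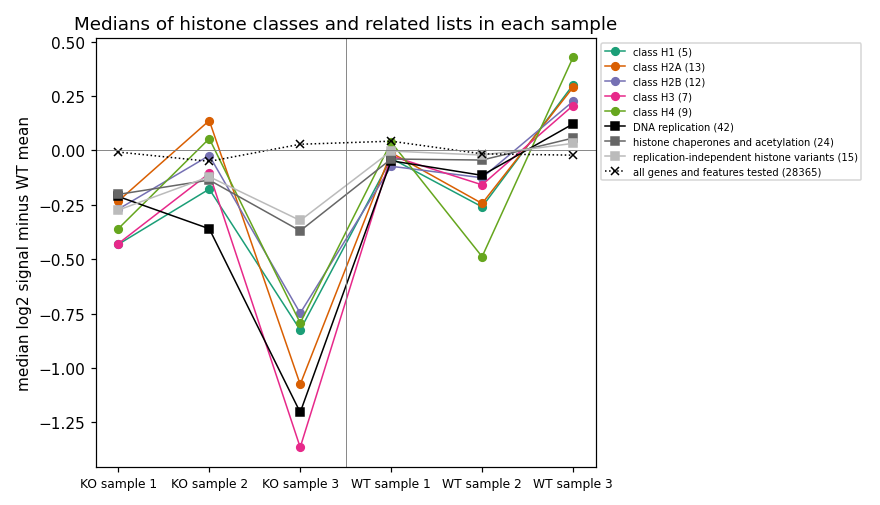
Median log2 signal minus the WT mean (vertical axis) of each histone class and 3 related lists in the 3 KO and 3 WT samples, with all genes as crosses and the number of genes in brackets. Lines only join points of the same set; the 5 histone classes and the DNA replication list lie between -1.36 and -0.75 in KO sample 3.

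Markers of the sorted cells and of other cells were compared as summed linear signals relative to the array's 75th percentile. All 11 satellite cell markers were measured, and their sum was 114 to 118 in KO and 99.2 to 113 in WT. Of these 11, 9 lay higher and 2 lower in KO, where 47.2% of all genes lay higher. All 6 endothelial (4.43 to 6.29 in KO, 3.49 to 4.74 in WT), all 6 mesenchymal (106 to 117 in KO, 85.9 to 94.3 in WT), all 6 mural (29.2 to 33.2 in KO, 22.4 to 30.9 in WT) and all 4 measured glial markers (26.4 to 29.7 in KO, 16.4 to 19.98 in WT) lay higher in KO, and 1 mural gene passed the test. Of 5 measured immune markers 4 lay lower in KO (sums of 116 to 129 in KO, 118 to 138 in WT), and Lyz2 was not above background on any array. KO sample 3 had the lowest endothelial sum and the highest glial sum of the KO samples (4.43 and 29.7), and its mesenchymal sum (109) lay between those of the other KO samples. Myofibre markers summed to 5.04 to 9.03 in KO and 3.88 to 7.97 in WT, and the 2 erythroid markers to 0.385 to 0.491 in KO and 0.279 to 0.471 in WT. Sums are weighted towards bright genes, so the median log2 differences are given as well. They were 1.38 for endothelial, 1.37 for mesenchymal, 0.87 for mural and 1.21 for glial markers. For satellite cell markers the median was 0.07, for immune -0.02, for myofibre -0.08 and for erythroid 0.14. The part of these differences in the histone values was not tested.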

How the data were processed

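Gene expression was measured on 9 arrays of 1 colour, 6 KO and 3 WT. The authors deposited the scanner output, which gives the intensity of each spot, not log-transformed. According to the headers the background had been subtracted and dim values were replaced by a small surrogate, which makes folds near background unreliable. The deposited table of processed values, on a log2 scale by its range, was an alternative. Which strand the labelling kept is not stated in the labels or headers.

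The log2 of the processed signal minus each array's 75th percentile was used. On each array 93 to 148 outlier spots were dropped, repeats of a probe were averaged, and 35 values left empty took the mean of the probe elsewhere. The filter asked for 3 of 9 arrays well above background and kept 42983 probes. KO arrays of the same first number were averaged. With 6 KO and 3 WT arrays, a gene present in KO alone passes the filter more easily. KO and WT samples were compared in R 4.3.3 by limma 3.58.1 (lmFit, eBayes; statmod 1.5.0). Benjamini-Hochberg adjustment ran over 28365 genes and features at 0.05. The test was also run on simulated data with each gene's own spread. It called 20.9% of genes changed by 1 on the log2 scale, 61.2% of those changed by 2 and 84.8% of those changed by 4. There were 10 false calls. A gene that was not called is thus not shown to be unchanged. Python 3.11.15, pandas 2.3.3, numpy 2.4.6 and matplotlib 3.10.9 did the rest. Coordinates are those of the array design (mm9), which was not matched to gene models, so exons and UTRs are not given. Names were matched to RefSeq for 48 of the 49 genes.

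Named were the 3 members of each class with the smallest p, all measured members of Hist2, Hist3 and Hist4, any member past the threshold or well above background on all arrays of 1 group and none of the other (there was none), and the 3 genes of each list with the smallest p. Other members named were chosen after their values were seen. The members and lists were chosen with earlier results of these data known. Alternatives were normexp correction, quantile normalization, other filters, the mean of probes, slide terms, arrays as separate samples, a replicate block and leaving out samples. The replicate numbers were not treated as pairs, since same-numbered samples did not deviate together (r of -0.04, 0.03 and 0.01).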

Additional observations from a re-analysis of the deposited data

How the results depend on the processing

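No member was called by limma under any alternative that gave a test (slide 2, with 1 WT array, gave none). At an unadjusted limma p under 0.05 these alternatives gave 1 to 9 members, beside 2536 to 5074 of all genes. The 9 members arose without KO sample 2, where 2827 of 28365 genes and features passed. A count of 1 member arose within slide 1 (2933 of all genes) and without WT sample 3 (2536 of all genes). The number of all genes called moved from 40 to 295 with normexp correction, 248 with the deposited table and 13 with no filter. It was 104 with probes above background on all arrays, 4 with slide as a block and 2 within slide 1. With all arrays as separate samples it was 1202, with a random block for the sample 546, and with a slide term added 367. Leaving out a sample gave 0 to 9. The replicate block gave 0 calls and 2950 genes at an unadjusted p under 0.05; the pairing was not borne out. With arrays as separate samples, Hils1 (1.95) and Rfc2 (-0.58) passed the threshold, so that the variant list, through a gene that passed the filter by its KO arrays, and the DNA replication list each held 1 call. The median of all members ranged from -0.66 to -0.14 when a sample was left out and from -0.52 to -0.18 under the other alternatives. Without a sample, the medians ranged from -0.73 to -0.27 for H1, from -0.68 to -0.15 for H2B, from -0.26 to -0.15 for the variants and from -0.33 to -0.23 for the chaperones. Within slide 2, with 1 WT array, 32 of 46 members lay below 0: Hist1h4k (0.021), Hist4h4 (0.18), Hist1h4c (0.14), Hist1h4d (0.023), Hist1h4h (0.23), Hist1h4i (0.0090), Hist1h3g (0.042) and Hist1h1t (0.19) changed sign. The cause was not tested. Dim probes (Hist2h2ab, Hist3h2ba, Hist1h2bp) are limited by signal over background.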
